A study of Mus musculus with 10 samples.

Results

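The signals of 10 genes for splicing regulators known from heart and muscle were followed in whole hearts of female mouse embryos: Rbfox1, Rbfox2, Rbm20, Rbm24, Mbnl1, Mbnl2, Celf1, Celf2, Qk and Ptbp1. They were read from every probe set of an Affymetrix array that the platform annotation assigns to exactly 1 of these symbols, which gave 44 of the 34945 probe sets with 1 symbol, and 10 of 18193 genes, between 1 for Rbm20 and 7 each for Celf2 and Qk. The hearts were taken at 13.5 days post coitum (dpc) from embryos with a heart-conditional heterozygous knockout of Hccs and from control littermates, with 5 biological replicates per genotype. For every replicate 4 to 5 hearts were combined, so an array reports a pool and no single embryo. Hccs lies on the X chromosome and codes for holocytochrome c synthase of mitochondria; because 1 X is silenced in each female cell, the knockout hearts mix cells that have lost it with cells that kept it. The labels name neither the Cre line nor any other allele that the groups may share. Values are log2 probe set signals, and a log2 change is the knockout mean minus the control mean with its standard error (SE).

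The group was chosen by the knockout and control values themselves: Rbfox2 was taken because its probe set 1418245_a_at was among the large decreases of this comparison, and the other 9 genes were added for their function with earlier results of these arrays known. The knockout and control values of all 10 genes are therefore given as a description, with no p-value. The arrays hold whole hearts, so fewer cells of a type and less RNA per cell cannot be told apart. A signal is that of the probes of a probe set and is not set against the signal of another gene.

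Splicing regulators bind short sequences in precursor RNA and make the spliceosome include or skip the exon nearby. RBFOX proteins bind the word UGCAUG and act on many exons of muscle and nerve, and in the mouse heart Rbfox2 is known to be needed for normal development. RBM20 and RBM24 are factors of striated muscle, MBNL and CELF proteins oppose each other as muscle passes from fetal to adult splice forms, QK is a KH-domain protein of muscle, vessels and glia, and PTBP1 is a widespread repressor that binds pyrimidine-rich stretches.

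The arrays were not alike in all respects. The Hccs probe set 1420890_at, which checks the genotype labels, was 11.23 ± 0.08 in controls and 10.68 ± 0.20 in knockouts (log2, mean ± SD, n = 5 each), with no overlap (log2 change -0.55, limma adjusted p = 0.0304). It passed in 4 of 10 fits with 1 array left out, and its limma adjusted p over all settings ran from 0.017 to 0.0983. The other Hccs probe set, 1420889_at, was also lower without overlap (log2 change -0.40) but did not pass (limma adjusted p = 0.105). The mean of the 18S ribosomal RNA control probe sets ran from 7.78 to 10.75 in controls and from 7.71 to 8.63 in knockouts (exact two-sided permutation p = 0.0397, adjusted p = 0.129 over 13 array measures). The 18S 5 prime control probe set, part of that mean, was lower by more (difference -1.88, exact two-sided permutation p = 0.0238, adjusted p = 0.129). With any 1 array left out its exact two-sided permutation p lay between 0.00794 and 0.0317. Control replicate 3 had the lowest 18S mean of the controls, 7.78, and the highest mean of the neural crest and neuron markers, 6.41 against 3.88 to 4.85 in the other controls and 3.88 to 4.28 in the knockouts. Of those markers 6 of 8 were measured, and Snap25 and Th lay below the median level of all probe sets, 3.69. All 10 cardiomyocyte markers were measured and above that level, and their mean ran from 14.72 to 14.90 in controls and from 14.43 to 14.63 in knockouts (difference -0.25, exact two-sided permutation p = 0.00794, the smallest that 5 against 5 arrays allow, adjusted p = 0.103).

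Rbfox2 was measured by 4 probe sets, and only 1 of them separated the genotypes. The log2 signals of 1418245_a_at in control replicates 1 to 5 were 10.73, 11.20, 10.74, 10.90 and 10.48, and in knockout replicates 1 to 5 they were 9.85, 10.07, 9.95, 9.75 and 9.91. Every knockout pool lay below every control pool, and the knockout signals were closer together than the control signals (SD 0.12 against 0.27). The log2 change was -0.90 (SE 0.12), and the signal was lower by 46.5%. The probe set 1434938_at read 7.80, 7.73, 7.96, 7.89 and 7.76 in the controls and 7.64, 8.02, 7.73, 7.62 and 7.86 in the knockouts. Its groups overlapped and its log2 change was -0.05 (SE 0.08). The probe set 1418246_at read 7.21, 7.27, 7.26, 7.18 and 7.65 in the controls and 7.45, 8.15, 8.01, 7.42 and 7.28 in the knockouts, so its mean was higher in the knockouts (log2 change 0.35, SE 0.18) with overlapping groups. The probe set 1418247_s_at had a log2 change of 0.10 (SE 0.11), from 6.21 ± 0.17 to 6.30 ± 0.21, again with overlap. The probe sets 1418245_a_at, 1418246_at and 1418247_s_at carry the same source sequence in the platform annotation. By Affymetrix naming the ending _a_at marks probes shared by several transcripts of 1 gene, and _s_at marks probes that can match more than 1 gene. Where the probes of each set lie in the Rbfox2 transcripts is not known from the labels or the annotation used.

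**Figure D1:**
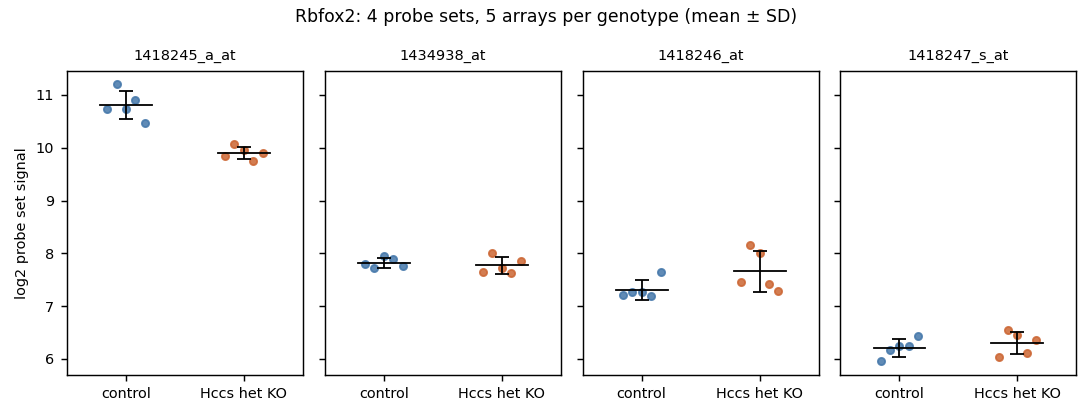
Log2 signal of the 4 Rbfox2 probe sets in 5 control and 5 Hccs heterozygous knockout pools; each point is 1 array, and bars give the mean ± SD on a shared axis that does not start at 0. For 1418245_a_at the knockouts lie between 9.75 and 10.07 and the controls between 10.48 and 11.20, while the groups of the other 3 probe sets overlap.

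In the limma fit over all 45037 probe sets, 1418245_a_at was the only 1 of the 44 below an adjusted p of 0.05, a threshold passed by 1.14% of all probe sets (0.318% as lower in the knockouts). As this comparison was used to choose Rbfox2, nothing is read from that count. Without control replicate 3 no member probe set passed, and the log2 change of 1418245_a_at was -0.92. It lay between -0.99 and -0.81 with any 1 array left out, and was -0.93 without the arrays numbered 3 of both genotypes, where it did not pass. With the 18S mean as a covariate it was -0.99.

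Rbfox1, the paralogue of Rbfox2 best known from neurons and heart muscle, had 1 probe set of clear signal. The values of 1418314_a_at were 6.06, 6.49, 6.36, 5.97 and 5.87 in control replicates 1 to 5 and 5.91, 5.59, 5.601, 5.94 and 5.41 in knockout replicates 1 to 5. The 2 highest values were those of control replicates 2 and 3, and the groups overlapped only where knockout replicates 1 and 4 lay above control replicate 5. The log2 change was -0.46 (SE 0.145), and the mean of the neural markers was highest in the same 2 arrays, at 4.85 and 6.41; the part of neural tissue in this difference was not tested. The other 3 Rbfox1 probe sets, 1438217_at, 1455358_at and 1447735_x_at, had control means of 4.03, 3.47 and 2.08, near or below the median level of all probe sets, and log2 changes between -0.06 and 0.01.

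Rbm20, which represses exons of titin and other sarcomere and calcium-handling transcripts in the heart, was measured by the single probe set 1429024_at. Its values were 10.23, 10.55, 10.78, 10.38 and 10.20 in control replicates 1 to 5 and 10.15, 10.02, 9.56, 10.17 and 10.03 in knockout replicates 1 to 5. No knockout pool reached the lowest control pool, but the gap between 10.17 and 10.20 was small. The log2 change was -0.44 (SE 0.14), and the signal was lower by 26.5%. With any 1 array left out the log2 change lay between -0.50 and -0.34. Rbm20 and Rbfox2 were the only 2 genes of the 10 with a probe set whose groups did not overlap, which holds for 5.26% of all probe sets (1.47% as lower and 3.79% as higher). Without the arrays numbered 3 of both genotypes the Rbm20 change was -0.25, and with the 18S mean as a covariate it was -0.67.

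Rbm24, a muscle protein that promotes the inclusion of exons in sarcomere transcripts, had a negative log2 change in all 5 of its probe sets, with overlapping groups in each. The probe set 1454752_at read 11.77, 11.88, 11.95, 11.73 and 12.02 in controls and 11.60, 12.09, 11.51, 11.78 and 11.68 in knockouts (log2 change -0.14, SE 0.11). The probe set 1458624_at read 9.12, 9.38, 9.02, 9.41 and 9.09 in controls and 9.02, 9.09, 8.87, 8.84 and 8.46 in knockouts (log2 change -0.35, SE 0.13). The log2 changes of 1456180_at and 1456491_at were -0.27 (SE 0.11) and -0.12 (SE 0.20). The lowest of the 44 log2 changes, -1.42 (SE 0.51), was that of 1443715_at, whose signals were weak and scattered. They were 4.78, 5.61, 5.66, 4.05 and 2.81 in control replicates 1 to 5 and 3.44, 3.63, 2.91, 2.89 and 2.96 in knockout replicates 1 to 5. The knockouts lay near or below the median level of all probe sets and control replicate 5 lay below all of them, so the size of this change is uncertain. This probe set passed the threshold without control replicate 5 (log2 change -1.86), the array below all knockouts. It also passed with the 18S mean as a covariate (-2.53), and that mean was itself lower in the knockouts on average. Nothing is read from these passes.

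Mbnl1 and Mbnl2, the muscleblind zinc finger proteins that promote adult splice forms, had their strong signals at similar values in both genotypes. Mbnl1 was bright only in 1416904_at, with 11.96, 12.13, 12.13, 11.90 and 11.64 in controls and 11.91, 11.61, 11.87, 11.88 and 11.92 in knockouts (log2 change -0.12, SE 0.10). Its other 2 probe sets had means of 3.12 or less and log2 changes of 0.10 and 0.0038. For Mbnl2 the 3 bright probe sets did not point one way. The probe set 1433754_at read 11.51, 11.43, 11.25, 11.26 and 11.06 in controls and 11.22, 11.33, 11.36, 11.52 and 11.65 in knockouts, a log2 change of 0.11 (SE 0.10). The probe set 1455827_at read 11.34, 11.50, 11.45, 11.29 and 11.09 in controls and 11.34, 10.89, 11.23, 11.14 and 10.93 in knockouts, a log2 change of -0.23 (SE 0.10). The log2 change of 1436858_at was -0.18 (SE 0.18), and those of 1457477_at and 1457237_at, with means of 4.31 or less, were -0.18 and -0.05. All groups of both genes overlapped.

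Celf1 and Celf2 bind GU-rich RNA and favour fetal splice forms in muscle. The brightest Celf1 probe set, 1426407_at, read 13.20, 13.38, 13.28, 13.26 and 13.06 in controls and 13.35, 13.09, 13.17, 13.04 and 13.15 in knockouts, with a log2 change of -0.07 (SE 0.07). The probe set 1426408_at, which carries the same source sequence in the annotation, read 9.47, 9.65, 9.74, 9.51 and 9.47 in controls and 9.55, 9.30, 9.32, 9.07 and 8.98 in knockouts, with a log2 change of -0.32 (SE 0.11). Only knockout replicate 1 lay within the control range there, and without it this probe set passed the threshold. Leaving out that array removes the overlap, and 1871 of all probe sets passed then instead of 513. Nothing is read from this pass. The other 3 Celf1 probe sets had log2 changes between -0.04 and 0.20. Of the 7 Celf2 probe sets 1451154_a_at, 1450069_a_at and 1423895_a_at were bright, with log2 changes of -0.14 (SE 0.07), 0.03 (SE 0.11) and -0.33 (SE 0.24). The last of these had the widest ranges of the 7, from 8.97 to 9.95 in controls and from 8.48 to 9.60 in knockouts. The other 4 had means of 5.80 or less and changes between -0.03 and 0.08.

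Qk, which encodes the quaking proteins, was measured by 7 probe sets, and all lay above the median level. In the fit to all 10 arrays 5 had negative and 2 had positive log2 changes, and the sign of the 2 depended on the setting. Among the 5, 1425597_a_at read 6.49, 7.41, 7.13, 6.40 and 5.76 in controls and 6.34, 6.02, 5.75, 4.99 and 5.49 in knockouts, a log2 change of -0.92 (SE 0.34). The probe set 1441964_at read 9.39, 9.88, 9.80, 9.505 and 8.99 in controls and 9.18, 8.92, 9.23, 9.09 and 9.05 in knockouts (log2 change -0.42, SE 0.16). The probe sets 1429735_at and 1429736_at, which carry the same source sequence, had log2 changes of -0.44 (SE 0.21) and -0.38 (SE 0.16), and the brightest, 1429318_a_at, had -0.21 (SE 0.13). The probe set 1451179_a_at read 12.86, 13.21, 13.23, 13.11 and 12.85 in controls and 13.02, 13.27, 13.26, 13.22 and 13.15 in knockouts, a log2 change of 0.13 (SE 0.09), and that of 1417073_a_at was 0.04 (SE 0.10). The latter was negative without control replicate 5 (-0.0278) and without knockout replicate 2 (-0.0088). All 7 had overlapping groups. In the 5 with negative changes control replicates 2 and 3 were the highest controls, and the 18S mean was lowest in control replicate 3 and highest, 10.75, in control replicate 5, where 4 of these 5 probe sets had their lowest control value. With the 18S mean as a covariate all 7 changes were lower, at -1.46 for 1425597_a_at, -0.68 for 1441964_at, -0.81 for 1429735_at, -0.66 for 1429736_at, -0.44 for 1429318_a_at, -0.11 for 1417073_a_at and -0.0033 for 1451179_a_at, so that none was positive. The 18S mean was itself lower in the knockouts on average, so the covariate and genotype are partly confounded. The part of 18S in the Qk signals was not tested.

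Most of the 10 genes are long. Their spans in the RefSeq annotation of GRCm38.p6 ran from 10.004 kb for Ptbp1 and 12.998 kb for Rbm24 to 857 kb for Celf2 and 1528 kb for Rbfox1, with a median of 157 kb against 20.2 kb for 18142 genes on the array. Rbfox2 spans 229 kb, longer than 95.9% of these genes, and Rbm20 206 kb. The table of gene starts used here held 14 promoters of 8 of the 10 genes, without Rbfox2 and Rbm20. The 250 bases before the start are printed for Rbm24 and Qk, the 2 genes with the most probe sets of negative change, to show how unlike they are in sequence. The sequences are from RefSeq (GRCm38.p6), 5′ to 3′ on the strand of the gene, from chr13:46418050-46418299 (plus strand) for Rbm24 and chr17:10319362-10319611 (minus strand) for Qk. Capitals mark matches to GGGCGG, the GC box bound by SP1, on either strand; the core word of NKX2-5, AAGTG, the word of the GATA factors, AGATAA, and the core of the ATF4 composite site, TGATGNAA, were searched the same way.
Rbm24: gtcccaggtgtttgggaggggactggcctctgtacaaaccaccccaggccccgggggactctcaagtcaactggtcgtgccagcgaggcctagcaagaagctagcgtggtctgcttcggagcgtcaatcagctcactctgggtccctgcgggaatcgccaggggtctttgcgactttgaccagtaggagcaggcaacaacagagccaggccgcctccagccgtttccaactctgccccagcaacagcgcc
Qk: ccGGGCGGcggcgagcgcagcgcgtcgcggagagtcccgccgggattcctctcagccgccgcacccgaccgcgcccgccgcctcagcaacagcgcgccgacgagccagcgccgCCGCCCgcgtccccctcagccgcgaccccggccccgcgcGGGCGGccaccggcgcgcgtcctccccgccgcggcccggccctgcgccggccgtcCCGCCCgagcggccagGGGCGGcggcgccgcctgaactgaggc
The Qk window is 84.8% G and C, a share reached by 0.18% of 32851 promoters, and holds 5 GC boxes, while the Rbm24 window is 62.4% G and C and holds none of the 4 words. Of all promoters 32.7% hold the GC box, 40.7% AAGTG, 9.99% AGATAA and 3.45% TGATGNAA, and of the 14 member promoters 6, 6, 1 and 1 do. Several of the 14 belong to Celf2, including the only promoter with AGATAA and most of those with AAGTG. Some windows of Celf2 overlap, so these are not counts of separate genes. None of the 4 words contains another, and a match is not a measured binding site.

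Ptbp1, the repressor whose decline accompanies differentiation of neurons and muscle, had no probe set with a negative log2 change. The probe set 1424874_a_at read 12.38, 12.28, 12.40, 12.22 and 12.44 in controls and 12.56, 12.29, 12.70, 12.26 and 12.33 in knockouts (log2 change 0.08, SE 0.09). The log2 changes of 1458284_at and 1450443_at were 0.03 (SE 0.03) and 0.04 (SE 0.05), and all 3 pairs of groups overlapped.

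**Figure D2:**
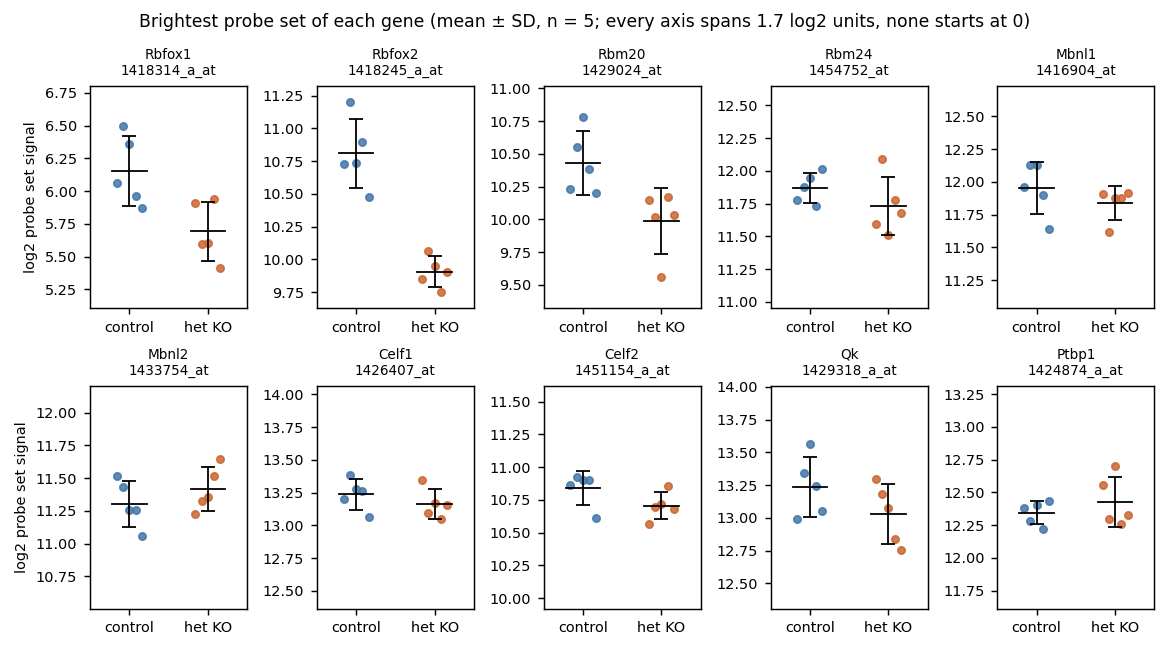
Log2 signal of the brightest probe set of each of the 10 genes; each point is 1 of 5 control or 5 heterozygous knockout arrays, bars are the mean ± SD, and every axis spans the same range and does not start at 0. Only Rbfox2 and Rbm20 have groups that do not overlap, with log2 changes of -0.90 and -0.44.

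Over the 44 probe sets 27 had a negative and 17 a positive log2 change, with a median of -0.05 against 0.03 for all 45037 probe sets, of which 37.7% were negative. For the brightest probe set of each gene 8 of 10 changes were negative with a median of -0.14, against a median of 0.02 and 39.5% negative over the 18193 genes measured. Of the 44 probe sets 10 had a mean below the median level of all probe sets, and their changes say little about the genes. Rbm20 and Rbm24 had no positive change, and Ptbp1 had no negative one. Of all 44 probe sets 33 kept their sign in every other setting that gave a value for them. The settings share most of their arrays, so a kept sign is no independent support. Of the 25 probe sets with a change above 0.1 in size, 23 kept their sign. The exceptions were 1451179_a_at of Qk (-0.0033) and 1456491_at of Rbm24 (0.19), both with the 18S mean as a covariate.

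**Figure D3:**
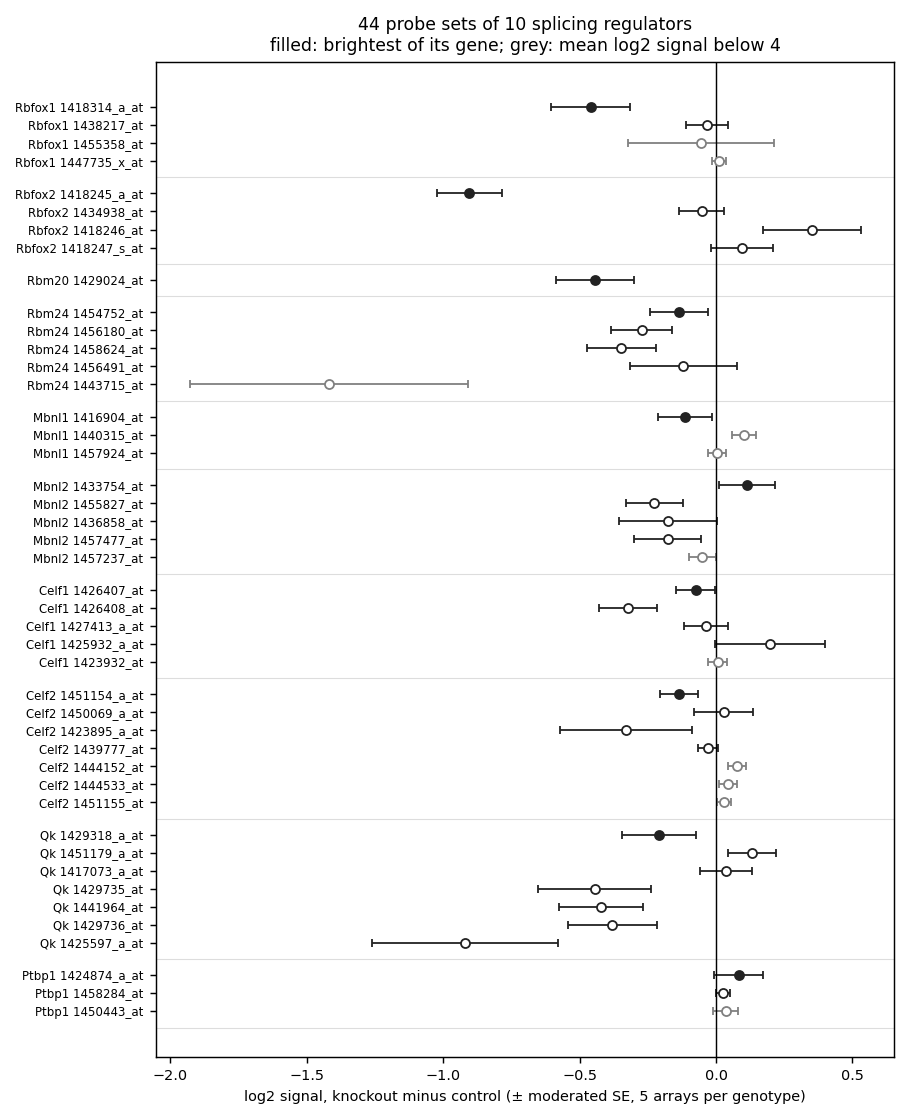
Log2 change, knockout minus control, of the 44 probe sets of the 10 genes with the moderated SE from 5 arrays per genotype; filled points mark the brightest probe set of a gene and grey ones a mean log2 signal below 4. The probe sets of Rbfox2 run from -0.90 to 0.35 and those of Qk from -0.92 to 0.13, while those of Rbm24 all lie below 0.

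To compare the probe sets of a gene directly, the brightest was set against each other probe set on the same array, which removes what both share there. For Rbfox2 the difference between 1418245_a_at and 1434938_at was 2.98 ± 0.29 log2 units in controls and 2.13 ± 0.08 in knockouts. Its change was -0.85 (SE 0.13), and that against 1418246_at and 1418247_s_at was -1.25 (SE 0.21) and -0.999 (SE 0.16). All 3 differences had groups that did not overlap, as did 6.08% of the 16752 such pairs on the array, and all 3 passed an adjusted p of 0.05, as did 1.59% of all pairs. All 3 contain 1418245_a_at, so they are not separate observations. These values contain the comparison that chose Rbfox2 and are a description. The changes of the 3 pairs stayed between -1.42 and -0.73 with any 1 array left out, but the count of passing member pairs was 0 without control replicate 1, 3 or 4 and without knockout replicate 2, 3, 4 or 5. Of the other 31 member pairs none passed, and only that of 1426407_at and 1426408_at of Celf1 had groups apart, with a change of 0.25 (SE 0.08). The pair of 1429318_a_at and 1425597_a_at of Qk had a change of 0.71 (SE 0.24) and that of 1454752_at and 1443715_at of Rbm24 one of 1.28 (SE 0.50), both with overlap. The 3 prime minus 5 prime difference of the actin control probe sets, a sign of RNA integrity, ran from 0.78 to 0.96 in controls and from 0.77 to 0.85 in knockouts (exact two-sided permutation p = 0.222, adjusted p = 0.361). That of Gapdh ran from -0.23 to -0.15 and from -0.24 to -0.18 (exact two-sided permutation p = 0.0952, adjusted p = 0.248). The part of RNA integrity in the Rbfox2 pattern was not tested.

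**Figure D4:**
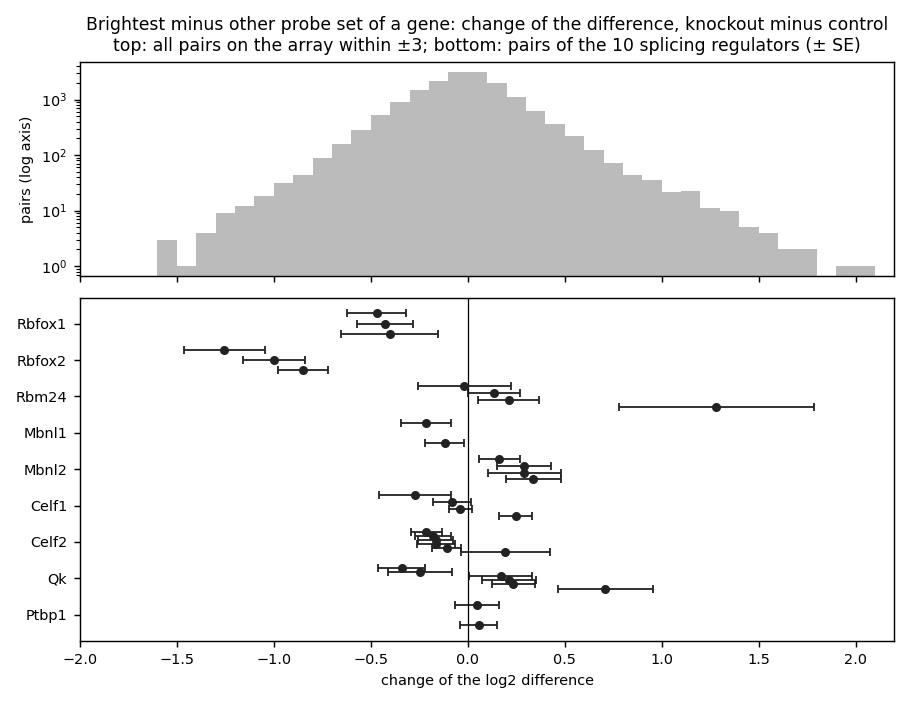
Change, knockout minus control, of the log2 difference between the brightest and each other probe set of a gene, for all pairs on the array within 3 log2 units of 0 (top, number of pairs on a log axis) and for the 34 pairs of the 9 genes with several probe sets (bottom, ± SE, 5 arrays per genotype). The 3 pairs of Rbfox2 lie at -1.25, -0.999 and -0.85.

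Deviations of each array from its genotype mean leave out the knockout comparison and show how the genes varied among pools of 1 genotype. Control replicate 5 was below the control mean in the brightest probe set of 8 of the 10 genes, Rbm24 and Ptbp1 being the exceptions, and control replicates 2 and 3 were above it in 9 and 8 genes. For Rbfox2 the deviation was -0.33 in control replicate 5, 0.39 in control replicate 2 and -0.07 in control replicate 3. No knockout array was on 1 side of its mean for more than 6 of the 10 genes. Over the 10 arrays the deviations of Rbfox2 followed those of Celf1 most closely among the members (Pearson r = 0.60), then Celf2 (0.47) and Mbnl1 (0.40), and the lowest r was that of Ptbp1 (-0.26). Among 11341 other genes above the median level the closest were Tmx4 (r = 0.86), Prr12 (0.85), Lpgat1 (0.84), Wdr19 (0.84) and Igfbpl1 (0.83). These r values describe 10 arrays that were normalized together, with both values of a pair read from the same RNA, and with so many genes compared the highest are large by selection. None of the 5 passed in the knockout comparison, and their log2 changes ran from -0.30 to 0.06.

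**Figure D5:**
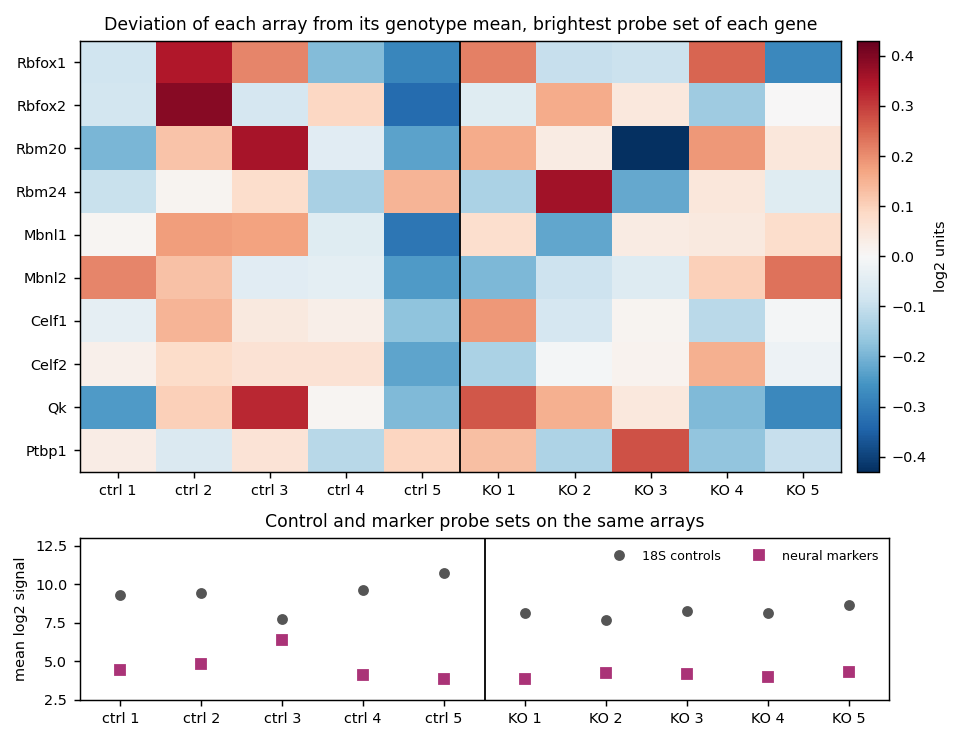
Top, deviation of each array from the mean of its genotype for the brightest probe set of each gene, in log2 units (5 control and 5 knockout arrays); bottom, mean log2 signal of the 18S control probe sets and of the neural crest and neuron markers on the same arrays. Control replicate 5 is low for 8 of 10 genes and has the highest 18S mean, 10.75, and control replicate 3 has the highest neural mean, 6.41.

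Other genes of the splicing machinery were counted in the same fit, each by its brightest probe set. Of 99 measured genes in 5 lists (other family members, SR proteins, hnRNP proteins, further regulators and the core spliceosome) 1 rose and none fell in limma at an adjusted p of 0.05, and the median log2 change was -0.0013. Over all genes 1.51% passed (0.962% higher and 0.55% lower), and 1 of 99 is near that share. An unadjusted p under 0.05 was found for 30 of the 99, and for 21.2% of all genes. None of the 9 genes of the list of other members of the RBFOX, MBNL, CELF and PTBP families with Rbm38 passed. The means of Rbfox3, Celf3, Celf5 and Celf6 lay below the median level of all probe sets, so their changes say little. The 3 with an unadjusted p under 0.05, outside the naming rule, were Mbnl3, Ptbp3 and Rbm38. All were lower, with log2 changes of -0.30, -0.33 and -0.20. The log2 change of Ptbp2, the neural counterpart of Ptbp1, was 0.08 (SE 0.07). None of 21 SR proteins and their kinases passed, with 8 at an unadjusted p under 0.05; Srsf3, a small SR protein, went from 13.92 ± 0.10 to 14.21 ± 0.13 without overlap (log2 change 0.29, limma adjusted p = 0.082). Of the fits with 1 array left out it passed only without knockout replicate 1 (log2 change 0.33), and its limma adjusted p over all settings ran from 0.0292 to 0.247. None of 20 hnRNP proteins passed, with 4 at an unadjusted p under 0.05, and none of 20 further splicing regulators, with 5; Hnrnpab and Matr3, the brightest of these lists, had log2 changes of -0.14 (SE 0.28) and 0.08 (SE 0.10). Hnrnpab read 13.62 in control replicate 5 against 14.87 to 15.00 in the other controls, and its change was -0.41 without that array and -0.04 without knockout replicate 2. That of Matr3 lay between 0.02 and 0.13 with any 1 array left out and was -0.10 with the 18S mean as a covariate.

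In the core spliceosome 1 of 29 measured genes passed. Dhx15, a helicase that takes the spliceosome apart, rose from 13.22 ± 0.03 to 13.57 ± 0.14 (log2, mean ± SD, n = 5 each), with a fitted difference of 0.35 (SE 0.06, limma adjusted p = 0.0331). No value overlapped between the groups. The log2 change of Snrpg, a component of the Sm ring, was -0.03 (SE 0.05). The Dhx15 call was kept only without knockout replicate 1 among the 10 fits with 1 array left out, where its log2 change lay between 0.31 and 0.40, and its limma adjusted p over all settings ran from 0.0041 to 0.135.

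Heart transcripts known to be spliced by these regulators were each read by their brightest probe set. Of 28 measured, 2 fell, 1 rose and 25 did not pass, where 0.55% of all genes passed as lower and 0.962% as higher. The median log2 change was -0.17 and 23 of the 28 were negative, against a median of 0.02 and 39.5% negative over all genes. The mean of the cardiomyocyte markers was lower by 0.25 in the same arrays, and Tnnt2 and Ryr2 are in both lists; the part of cell make-up was not tested. Myom1, the M-band protein myomesin, fell from 12.41 ± 0.11 to 11.88 ± 0.13 (log2 change -0.52, SE 0.07, limma adjusted p = 0.0204). For Mef2a, a muscle transcription factor with alternative exons, 1427185_at fell from 12.34 ± 0.13 to 12.00 ± 0.09 (log2 change -0.34, SE 0.07, limma adjusted p = 0.0451). For Dtna, dystrobrevin alpha of the dystrophin complex, 1419223_a_at rose from 6.71 ± 0.15 to 7.29 ± 0.12 (log2 change 0.58, SE 0.08, limma adjusted p = 0.0209). Without control replicate 3 none of these 3 genes passed, with log2 changes of -0.49, -0.31 and 0.55, and of the 10 fits with 1 array left out Mef2a passed only without control replicate 5 or knockout replicate 1 and Dtna in 8. Dtna also missed without knockout replicate 2 (log2 change 0.57, limma adjusted p = 0.0511). The other probe sets of Mef2a and Dtna are not in this count. Among them 1421252_a_at of Mef2a and 1427588_a_at of Dtna changed differently from the brightest, as given below. The brightest transcript that did not pass was Tnnt2, cardiac troponin T (log2 change -0.12, SE 0.05). Known targets of RBM20 outside the naming rule included Ttn, Ryr2, Camk2d and Ldb3, each read by its brightest probe set only. Their log2 changes were -0.71 (SE 0.23), -0.66 (SE 0.22), 0.30 (SE 0.16) and -0.16 (SE 0.08) in that order, and none passed. The list holds further targets of RBM20, Trdn among them.

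Probe sets of the same target transcript could also be set against each other. Of 73 pairs in this list 4 passed an adjusted p of 0.05, where 1.59% of all pairs did, and these 4 were chosen after their values were seen. The Trdn pairs share 1451801_at, and the brightest probe sets of Mef2a and Dtna were already counted as passing above. The 4 are therefore not independent of each other or of that count. For Trdn, triadin of the calcium release complex, whose splicing RBM20 controls, the difference between 1451801_at and 1426143_at rose from 1.72 ± 0.12 to 2.37 ± 0.16 (change 0.65, SE 0.09, limma adjusted p = 0.033). That between 1451801_at and 1426144_x_at changed by 0.50 (SE 0.11, limma adjusted p = 0.0496), while 1451801_at itself had a log2 change of 0.03 (SE 0.12). For Mef2a the difference between 1427185_at and 1421252_a_at fell from 2.91 ± 0.13 to 2.29 ± 0.22 (change -0.62, SE 0.11, limma adjusted p = 0.0355). For Dtna the change of 0.82 (SE 0.10, limma adjusted p = 0.033) was against 1427588_a_at, whose mean of 3.23 lay below the median level of all probe sets. In the 10 fits with 1 array left out these 4 pairs passed in 3, 1, 2 and 3, with changes of 0.61 to 0.71, 0.44 to 0.57, -0.70 to -0.56 and 0.76 to 0.89, and the limma adjusted p over all settings ran from 0.00375 to 0.195.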

How the data were processed

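RNA of 10 pools of whole embryonic hearts, 5 per genotype, was hybridised to Affymetrix arrays, and genotypes came from the labels. Per the labels' protocols, labelled cRNA was made from 5 ug of column-purified, DNase-treated total RNA. The authors deposited log2 signals per probe set; RMA and Partek are named in the submitters' processing notes, without versions. That the scale is log2 follows from the range of the signals, 0.602 to 16.6. RMA brings arrays to a common distribution, so a change of total RNA cannot be seen.

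Symbols came from the platform annotation, of which 34741 of 34945 Entrez numbers were found in the RefSeq table of GRCm38.p6. Of 45101 probe sets 64 array controls were left out. The remaining probe sets entered a model of genotype alone in limma 3.58.1, run under R 4.3.3 (lmFit, then eBayes, two-sided, Benjamini-Hochberg over all probe sets, threshold 0.05), with no filter on low values. Pairs of probe sets of a gene were fitted in the same way, and array measures were compared by exact permutation. The brightest probe set is that with the highest mean over all arrays. Array number limits the precision, and detection was not called. The probe set fit was checked on simulated data with independent noise, which lack effects shared by the probe sets of an array. The pair fit was run on the same data with no check set for it. The members and lists were chosen with earlier results of these data known.

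Named are all member probe sets, Hccs, up to 4 genes of each of 6 lists with the smallest p past the threshold and the brightest that missed it, and the 5 genes most like Rbfox2; other names are marked. Alternatives were the replicate block, 2 normalizations, 2 filters on level, 2 sets of features, another variance model, array weights, a stricter threshold and each array left out; the arrays numbered 3 left out together and 18S as a covariate were added after seeing the data. Plots were made in Python 3.11.15 using matplotlib 3.10.9.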

Additional observations from a re-analysis of the deposited data

Results flagged for a closer look

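Of 88 groups of 5 arrays of the member probe sets 6 held 1 array far from the other 4, by Dixon's test at its 95% critical value of 0.71, where chance gives about 1 in 20. In 1418246_at of Rbfox2 control replicate 5 was highest at 7.65, with the other controls at 7.18 to 7.27. In 1429024_at of Rbm20 knockout replicate 3 was lowest at 9.56 against 10.02 to 10.17, and this array deepened the mean difference of Rbm20. In 1456491_at of Rbm24 control replicate 3 was lowest at 5.50 against 6.16 to 6.35. In 1416904_at of Mbnl1 knockout replicate 2 was lowest at 11.61 against 11.87 to 11.92. In 1451154_a_at of Celf2 control replicate 5 was lowest at 10.61 against 10.86 to 10.92. In 1423932_at of Celf1, near the median level of all probe sets, knockout replicate 1 was lowest at 3.58 against 3.69 to 3.73. Of 26 groups of array measures 2 held such an array: the endothelial marker mean of control replicate 4, 9.62 against 9.80 to 9.84, and the erythroid marker mean of knockout replicate 4, 12.32 against 12.73 to 12.84.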

How the results depend on the processing

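The log2 change of 1418245_a_at of Rbfox2 lay between -0.99 and -0.81 in the 21 other settings, a description only, since this comparison chose the gene; it missed the threshold with the replicate block, when control replicate 3 was left out, and when both arrays numbered 3 were. Counts depended far more on the arrays kept, and fewer arrays also lower the power; the cause was not tested further. With 1 array left out, the probe sets past the threshold numbered 66 to 1871 instead of 513, the member probe sets 0 to 2, the pairs 0 to 1057 instead of 267 and the member pairs 0 to 4. The list counts ran from 0 to 4 for SR proteins, 0 to 2 for hnRNP proteins, 0 to 5 for the core spliceosome and 0 to 4 for the heart transcripts. The counts 1871, 1057 and 5 came without knockout replicate 1. The labels do not say whether equal replicate numbers pair the samples. With the replicate block 29 probe sets passed, with 0 member probe sets, 0 pairs and 0 member pairs. Of the core spliceosome and of the heart transcripts 0 genes passed. Deviations of same-numbered arrays had correlations of -0.13 to 0.09, and no array correlated best with that of its own number. Such correlations cannot exclude a pairing. At an adjusted p of 0.01 the counts were 29, 0, 0, 0, 0 and 0 in the same order, and with both arrays numbered 3 left out 44, 0, 0, 0, 0 and 0. Among probe sets above the median level 865 passed, with 1 SR gene. With array weights 1756 probe sets and 1005 pairs passed, with 2 SR, 1 hnRNP and 3 spliceosome genes. With the 18S mean as a covariate 1654 probe sets passed, of which 968 were lower, with 2 member probe sets (1418245_a_at of Rbfox2 and 1443715_at of Rbm24), 0 spliceosome genes and 7 heart transcripts. The 18S mean was itself lower in the knockouts on average, so this covariate and genotype are partly confounded. Quantile normalization and median centring moved the median of all probe sets from 0.03 to 0.01 and 0.04. Detection above background was not given, so weak probe sets have no firm level.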

Other observations

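Other splicing regulators, Ptbp3 and Hnrnpr, had probe sets that moved apart, and they were chosen after their values were seen. For Ptbp3, a paralogue of Ptbp1, the difference between 1455819_at and 1424084_at had a change of -0.74 (SE 0.15, limma adjusted p = 0.0456) and that between 1455819_at and 1424083_at a change of -0.65 (SE 0.13, limma adjusted p = 0.0472), while the log2 change of 1455819_at was -0.33 (SE 0.11). For Hnrnpr, an hnRNP protein, the difference between 1427129_a_at and 1437526_x_at had a change of -0.38 (SE 0.06, limma adjusted p = 0.033), while that of 1427129_a_at alone was 0.06 (SE 0.06). These 3 pairs passed in 2, 1 and 3 of the 10 fits that each drop 1 array. The ending _x_at marks probes that can bind other transcripts. These are the 3 of 212 pairs in the 5 lists of splicing genes that passed, where 1.59% of all pairs did. The Ptbp3 pairs share 1455819_at, so the 3 are not independent.

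The other cell type lists gave these values. The endothelial marker mean was 9.78 ± 0.09 in controls and 9.62 in knockouts (exact two-sided permutation p = 0.0397, adjusted p = 0.129, n = 5 each). The epicardial mean ran from 9.77 to 10.16 in controls and had a knockout mean of 10.22 (exact two-sided permutation p = 0.119, adjusted p = 0.258). The differences of the fibroblast, smooth muscle, erythroid and macrophage means were -0.01, 0.08, -0.17 and 0.08, with exact permutation p of 0.81, 0.563, 0.317 and 0.5. With any 1 array left out they lay between -0.05 and 0.03, -0.0084 and 0.14, -0.29 and -0.03, and 0.0051 and 0.12. The smooth muscle difference was negative only without control replicate 3, and the erythroid difference, -0.29, had an exact two-sided permutation p of 0.0317 without control replicate 2, before adjustment over the lists. The spiked hybridisation controls differed by -0.11 (exact two-sided permutation p = 0.429).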
